A study of Mus musculus with 97 samples.

Results

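Doxorubicin plus cyclophosphamide (DC) was compared with vehicle in the hippocampus of older knock-in mice carrying human APOE3, over the genes whose probes stood clear of the assay background. The members were the genes whose count, divided by that of the negative probe in the same library, had a median above 2 over the 8 DC and 8 vehicle libraries. This gave 51 of 19962 genes (0.255%). The median was taken over both groups together, so a gene could enter through 1 group: 41 members were above 2 in both groups, 9 in vehicle only (Txlnb, Tbcel, Marcks, Gcsh, Elof1, Rps26, Alyref, Rps6kb2 and Ubb) and 1 in DC only (Rreb1). Just inside the limit lay Fth1 at 2.12 and Ubb at 2.02, and just outside it lay Enoph1 at 1.98 and Mgat1 at 1.97. Of the 51 members, 36 also passed the low-count filter of the test and 15 did not.

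The assay was the GeoMx Whole Transcriptome Atlas of NanoString, in which probes are hybridised to a tissue section, the tags of a chosen region are freed by ultraviolet light, and the tags are sequenced and counted. The series holds 97 libraries, 1 per captured region, in 12 groups of genotype, treatment and brain region. Weekly doses for the DC mice were 3 mg/kg of doxorubicin with 40 mg/kg of cyclophosphamide, and the vehicle mice received a mixture of dimethyl sulfoxide and phosphate buffered saline. All were injected into the peritoneum 2 times per week for 2 weeks. For comparison, 4 further sets were used: APOE3 hippocampus after DD (the same doxorubicin dose with 10 mg/kg of docetaxel, a microtubule stabiliser, each week), APOE4 hippocampus after DC or vehicle, APOE3 cortex after DC or vehicle, and the cortex of APOE4 vehicle mice. All groups, vehicle included, carried a human APOE allele. The labels give neither the subfield nor the area of a captured region, and they do not tie regions to animals. The p-values below are over regions and are therefore too small where regions share an animal.

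Doxorubicin intercalates into DNA and traps topoisomerase II on it, which leaves double-strand breaks. Cyclophosphamide is a prodrug that the liver turns into a DNA-alkylating agent, and the pair is a standard regimen for breast cancer. The hippocampus forms new memories, and its dentate gyrus keeps dividing precursors into adult life, which makes it a common place to look for effects of chemotherapy on the brain. Apolipoprotein E carries lipids between astrocytes and neurons, and APOE4 is the common risk allele for Alzheimer's disease.

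Among the genes that passed the low-count filter, less signal lay above background after DC. The summed counts of the 38 genes that passed the low-count filter had a lowest, median and highest value of 693, 914.5 and 1795 in DC libraries, against 1158, 2979 and 5091 in vehicle libraries. All but 2 of the DC libraries lay below every vehicle library, so the groups overlapped slightly. The mean log2 difference was -1.42, a fold of 0.375 (two-sided exact permutation p = 0.00109 over libraries, too small where these share an animal). Over the 4 runs of neighbouring wells in each group the exact p was 0.0286, the smallest that 4 against 4 allows. Without Mtch2, the gene with the most counts, the difference was -0.89 (exact permutation p = 0.0127). The negative probe, which has no target, had a lowest, median and highest value of 1.02, 1.26 and 1.86 in DC libraries, against 1.07, 1.27 and 1.41 in vehicle libraries. Its difference was 0.04 on the log2 scale (exact permutation p = 0.762). These values lie close to 1, the lowest value in the files, so the negative probe had little room to fall in either group. The test therefore does not show that background was equal. Total counts ran from 21569 to 46287 in DC libraries and from 25315 to 36374 in vehicle libraries. Totals above the lowest value had a median of 8263 in DC and 10346 in vehicle libraries. Genes above 2 times the negative probe had a median number of 1645 in DC and 1868 in vehicle libraries. The ranges of both measures overlapped widely, so the fall is shown for the tested genes and not for the whole library. A median of 73.7% of genes in DC libraries and 71.9% in vehicle libraries stood at 1, the lowest value in the files. Fewer cells in a region, a smaller region and less RNA per cell cannot be told apart here.

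**Figure D1:**
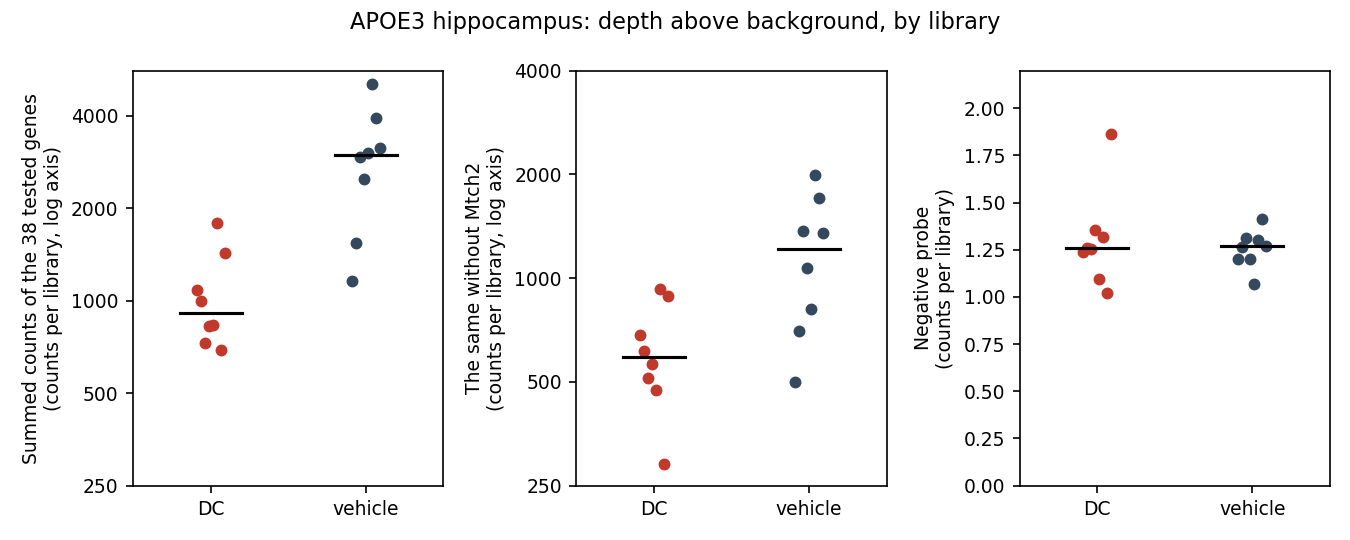
Summed counts of the 38 tested genes (left, log axis), the same sum without Mtch2 (middle, log axis) and the negative probe (right, linear axis) in the 8 DC and 8 vehicle libraries of APOE3 hippocampus. Points are libraries and lines are medians: the sum has a median of 914.5 in DC and 2979 in vehicle libraries, while the negative probe has a median of 1.26 in DC and 1.27 in vehicle libraries. The negative probe lies close to 1, the lowest value in the files.

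The label hippocampus could not be checked against marker genes, because these lay at background. Ratios to the negative probe did not exceed 1 for 4 of 4 markers of excitatory neurons, 4 of 4 of dentate granule cells, 2 of 3 of CA1 and 4 of 4 of CA3. The highest were Slc17a7, the vesicular glutamate transporter, at 0.956, Calb1 at 0.956, Fibcd1 at 1.03 and Nptx1 at 0.924. The markers of inhibitory neurons, astrocytes, oligodendrocytes, microglia, endothelium, choroid plexus, blood, cortex and thalamus were at the same level, with list medians between 0.803 and 0.946. The glutamate transporter Slc1a2 of astrocytes reached 1.58. Over all 27 gene lists examined, 40 of 329 listed genes had a median ratio above 1 and 6 had one above 2, which makes them members: Mtch2, Hmga2, Tmed2, Gimap4, Olig2 and Elof1.

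The genes that DNA-damaging drugs are known for could not be read. Of 30 p53 target and DNA damage response genes in the table, 29 had a ratio at or below 1, among them Cdkn1a, the p53-induced inhibitor of the cell cycle, at 0.874. The highest were Tnfrsf10b at 1.16 and Polk and Rrm2b at 0.924. In the neurogenesis and proliferation list, Dcx, the marker of young neurons, stood at 0.803, and only Hmga2 of 17 genes was above the negative probe. All 20 cytokine and NF-kB target genes and all 16 neurotrophic and immediate early genes lay at or below it. Ribosomal protein genes had a list median of 1.03, led by Rps4x at 1.61 and Rpl4 at 1.60. The probe for mouse Apoe stood at 0.874. The mice carried a human APOE allele, and whether this level reflects depth was not tested. Differences between groups in the other genes of these lists were not detectable at this depth.

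Most members stood lower over background after DC. The median ratio to the negative probe was lower in DC than in vehicle libraries for 44 of the 51 members and higher for 7. The ratio of the 2 group medians had a median of 0.525 over the members, against 1.02 over the other 19911 genes, most of which sit at the lowest value and cannot fall. The ratio also chose the members, and the 9 that were above 2 in vehicle only had to be lower after DC; of the 41 above 2 in both groups, 35 were lower. All 14 members with a ratio above 10 were lower after DC, with folds from 0.239 to 0.640 and a median of 0.421. Of the 13 members between 5 and 10, 12 were lower (median fold 0.563), and of the 24 below 5, 18 were lower (median fold 0.769). These are descriptions without a test. Members with low ratios lie nearer the lowest value and have less room to fall, so the folds of these ratio classes cannot be ranked. The counts of different genes come from different probes, so their order is not an order of RNA amounts.

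**Figure D2:**
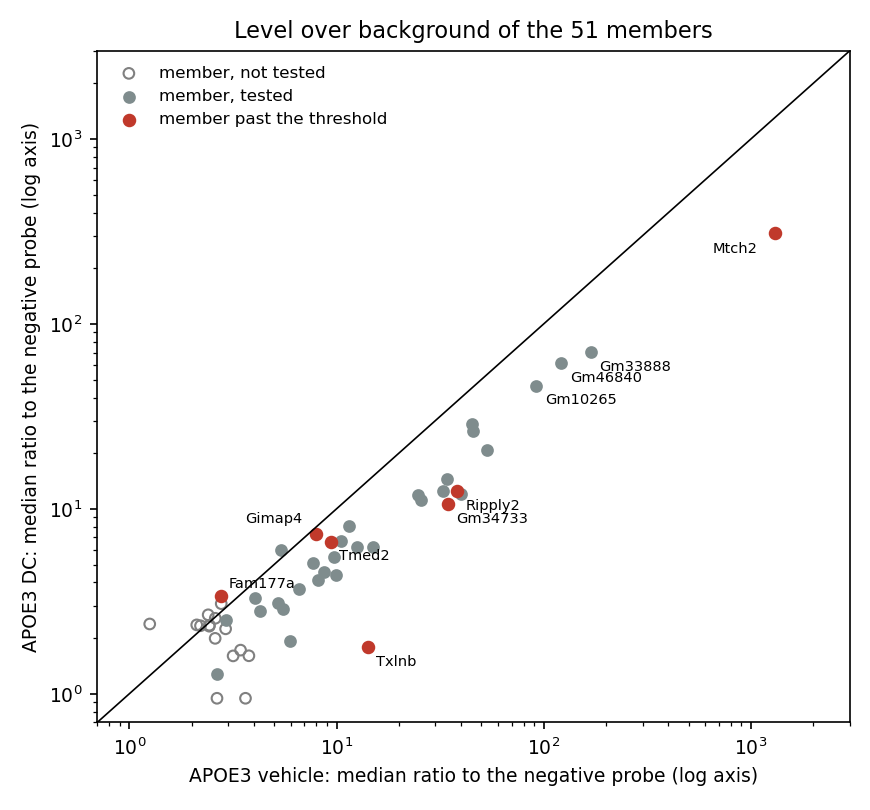
Median ratio to the negative probe of the 51 members in DC (vertical) and vehicle (horizontal) libraries of APOE3 hippocampus, both on log axes. Open points are the 15 members that were not tested, grey points tested members, red points members past the threshold, and the line marks equal levels: 44 points lie below it and 7 above.

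The test asked which genes changed relative to the rest of the library. It scales each library by TMM, which sets the typical tested gene to no change and so takes out a difference shared by the tested genes. Under this scaling 7 of the 36 tested members passed an adjusted p of 0.05 in edgeR's quasi-likelihood test, 4 lower and 3 higher after DC; the p-values are over regions and too small where regions share an animal. Over all 38 tested genes 8 passed (21.1%), 4 lower (10.5%) and 4 higher (10.5%), so the share among members is close to the background. The median log2 fold change was 0.06 over the tested members and over all tested genes, with 20 tested members above 0 and 16 below. The groups overlapped in counts for each of the 51 members, and in log2 CPM for each of the 36 tested. The 2 tested genes that are no members, Mplkip and Cyp2d12, overlapped in both measures too, so overlap is not particular to the members.

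Mtch2, an insertase in the outer membrane of mitochondria and a receptor of the death agonist tBID, carried the most counts. It had a lowest, median and highest count of 214, 390 and 863 in DC libraries, against 659, 1680 and 3104 in vehicle libraries. DC replicate 6 alone reached into the vehicle range, and 7 DC libraries lay below all vehicle libraries. Of the tested counts it held 40.5% ± 9.32 (SD, n = 8) after DC and 58.7% ± 6.20 (SD, n = 8) with vehicle. Relative to the other tested genes it was 2.16-fold lower (log2 -1.11, SE 0.28, edgeR adjusted p = 0.00439, 8 of 8 libraries below the vehicle mean). With the negative probe over the tested counts as a covariate the Mtch2 call ended (log2 -0.58, adjusted p = 0.165). The tested counts in this covariate include Mtch2 itself, so the adjustment can also take out part of its own change. None of the other 26 genes of the mitochondrial outer membrane and apoptosis list was tested, and the next highest, the tBID precursor Bid, lay at a ratio of 1.23.

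Txlnb, a taxilin that binds syntaxins and is best known from muscle, had the largest decrease of the 36 tested members. Its counts had a lowest, median and highest value of 1, 2.5 and 11 in DC libraries, against 3, 17 and 25 in vehicle libraries. After DC it stood at the lowest value of 1 in 2 libraries, and DC replicates 4, 5, 6 and 8 overlapped with vehicle replicates 1 and 2, the lowest of their group. The median ratio to the negative probe was 1.79 in DC and 14.2 in vehicle libraries. The relative change was 2.45-fold (log2 -1.29, SE 0.27, edgeR adjusted p = 0.000743, 8 of 8 libraries below the vehicle mean).

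Gm34733 and Ripply2 were also lower. Gm34733, a protein-coding model of RefSeq, had a lowest, median and highest count of 5, 13.5 and 35 in DC libraries, against 20, 40 and 80 in vehicle libraries. All DC libraries but replicate 6 lay below the vehicle range. It was 1.68-fold lower (log2 -0.75, SE 0.20, edgeR adjusted p = 0.00439, 8 of 8 libraries). With the same covariate it no longer passed (log2 -0.48, adjusted p = 0.165). Gm34733 made up 1.35% ± 0.427 (SD, n = 8) of the tested counts after DC. With vehicle it made up 1.57% ± 0.293 (SD, n = 8). These spreads overlapped, and the drop in this percentage was smaller than the 1.68-fold under TMM scaling. Ripply2, a corepressor that ends Tbx6 activity in forming somites, had 9, 15.5 and 36 counts in DC libraries, against 13, 47 and 90 in vehicle libraries. The groups overlapped more, since vehicle replicates 1 and 2 lay among the DC libraries. It was 1.56-fold lower (log2 -0.64, SE 0.22, edgeR adjusted p = 0.0324, 8 of 8 libraries). As a share of the tested counts Ripply2 was level, at 1.66% ± 0.527 (SD, n = 8) after DC and 1.66% ± 0.429 (SD, n = 8) with vehicle. Its call was lost when Mtch2 was left out of the fit. The Ripply2 call held in only 4 of 14 alternative settings and ended, among others, under upper-quartile scaling (log2 -0.37, adjusted p = 0.156), DESeq2 (adjusted p = 0.0617) and runs of wells summed (adjusted p = 0.264). It also ended without any one of DC replicates 1, 2, 3 and 4 or vehicle replicates 3, 5 and 6, where log2 ran from -0.59 to -0.43 and adjusted p from 0.0603 to 0.191.

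The promoter windows of Mtch2, Gm34733 and Ripply2, which were lower together after DC, are shown with that of Gimap4, which was higher, because these are the 4 of the 8 called genes with an entry in the RefSeq table used (GRCm38.p6). Each window runs from 250 bases before to 50 after the annotated start, 5′ to 3′ on the plus strand. Capitals mark matches on either strand to the TATA box TATAAA, the CCAAT box or the GC box GGGCGG, and no matches overlap.
Mtch2: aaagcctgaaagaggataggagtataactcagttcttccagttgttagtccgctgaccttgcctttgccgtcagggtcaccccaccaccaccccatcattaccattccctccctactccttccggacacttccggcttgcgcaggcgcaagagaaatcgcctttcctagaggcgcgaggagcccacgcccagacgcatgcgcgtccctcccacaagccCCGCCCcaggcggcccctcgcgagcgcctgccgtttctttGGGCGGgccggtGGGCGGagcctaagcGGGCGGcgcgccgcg
Gm34733: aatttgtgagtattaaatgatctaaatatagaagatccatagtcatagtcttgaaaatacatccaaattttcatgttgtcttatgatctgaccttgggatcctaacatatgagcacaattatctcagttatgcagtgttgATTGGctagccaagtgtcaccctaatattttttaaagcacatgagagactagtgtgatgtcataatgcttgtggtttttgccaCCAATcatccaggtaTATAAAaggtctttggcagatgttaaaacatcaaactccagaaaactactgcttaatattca
Ripply2: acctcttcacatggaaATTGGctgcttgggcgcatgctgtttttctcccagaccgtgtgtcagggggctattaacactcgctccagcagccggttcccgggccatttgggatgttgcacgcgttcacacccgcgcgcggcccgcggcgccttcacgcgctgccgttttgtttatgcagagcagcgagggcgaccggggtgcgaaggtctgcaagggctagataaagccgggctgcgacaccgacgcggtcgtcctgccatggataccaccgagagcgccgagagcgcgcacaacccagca
Gimap4: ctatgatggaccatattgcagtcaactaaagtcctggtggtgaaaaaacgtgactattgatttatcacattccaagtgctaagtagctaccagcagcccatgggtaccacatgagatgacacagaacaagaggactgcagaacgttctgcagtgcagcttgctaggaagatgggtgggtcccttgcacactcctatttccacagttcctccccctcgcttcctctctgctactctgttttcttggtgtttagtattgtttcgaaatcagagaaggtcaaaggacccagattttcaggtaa
The windows lie at chr2:90846905-90847204 (Mtch2), chr16:89226561-89226860 (Gm34733), chr9:87015287-87015586 (Ripply2) and chr6:48684328-48684627 (Gimap4).

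The 4 windows had little in common. The Mtch2 window was 64.7% G and C and held 4 GGGCGG boxes, a motif found in 35.7% of the 32851 promoter windows of the table. The Gm34733 window was only 34% G and C, with 1 TATAAA, first base at -12, and 2 CCAAT boxes. The Ripply2 window was 63.3% G and C with 1 CCAAT box, and the Gimap4 window was 46% with none of the motifs. TATAAA occurs in 13.6% and CCAAT in 37.4% of all windows, whose median G and C content is 52.7%. The E-box CACGTG (7.15% of windows) and the p53 half-site consensus (8.36%) matched in none of the 4. Matches are letters only, and their absence says nothing about a factor. Gm34733 lies 93729 bases from another member, Gm33888, on chromosome 16, with 9 annotated genes between them, 1 of them for a keratin-associated protein.

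The 3 members called higher were higher in their share of the tested counts, and their count ranges in DC and vehicle libraries overlapped almost fully. The sum of tested counts was lower after DC, so the share of a gene with level counts rises. Mtch2 went from 58.7% of this sum with vehicle to 40.5% after DC. With Mtch2 left out of the fit, the calls of Tmed2, Gimap4 and Fam177a were kept. Why these 3 were called higher was not tested. Tmed2, a p24 cargo receptor of vesicles between endoplasmic reticulum and Golgi, had a lowest, median and highest count of 5, 10.5 and 16 in DC libraries, against 5, 11.5 and 17 in vehicle libraries. The count ranges were nearly the same, while it made up 0.971% ± 0.295 (SD, n = 8) of the tested counts after DC and 0.385% ± 0.0890 (SD, n = 8) with vehicle. Relative to the other genes it was 1.68-fold higher (log2 0.74, SE 0.25, edgeR adjusted p = 0.0265, 8 of 8 libraries above the vehicle mean). Scaled to the negative probe in place of TMM, the sign turned (log2 -0.18, adjusted p = 0.745). No other gene of the 19 in the early secretory pathway list was a member, and 17 lay at or below the negative probe. The Tmed2 call ended without DC replicate 2 or vehicle replicate 3, 6 or 8 (log2 0.63 to 0.73, adjusted p 0.0569 to 0.115), and held in 8 of 14 alternative settings.

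Gimap4, a GTPase of immunity-associated protein family found in lymphocytes, had 1, 9.5 and 21 counts in DC libraries, against 2, 9.5 and 20 in vehicle libraries (lowest, median, highest). The ranges coincided, and the 2 lowest DC values came from replicates 7 and 8, which are neighbours on the plate. Its relative change was 1.94-fold (log2 0.96, SE 0.30, edgeR adjusted p = 0.0168), with 6 of 8 DC libraries above the vehicle mean. The log2 change was 0.01 when scaled to the negative probe (adjusted p = 0.986). The call held in 6 of 14 alternative settings and ended without DC replicate 2 (log2 0.70, adjusted p = 0.115), with wells of a run summed (adjusted p = 0.0698) and with the run as a random block (log2 0.60, adjusted p = 0.258). Of the 17 GIMAP and lymphocyte genes examined, 15 lay at or below the negative probe, and their summed count had a range of 17 to 41 in DC and 19 to 43 in vehicle libraries.

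Fam177a had 1, 4.5 and 9 counts in DC libraries, against 1, 3.5 and 8 in vehicle libraries (lowest, median, highest). It was 2.02-fold higher in relative terms (log2 1.02, SE 0.37, edgeR adjusted p = 0.0390, 8 of 8 libraries), and 0.07 on the log2 scale when scaled to the negative probe (adjusted p = 0.917). The Fam177a call ended without any one of DC replicates 2, 4, 5 and 8 or vehicle replicates 1 and 4 to 8 (log2 0.89 to 1.15, adjusted p 0.0587 to 0.160), and held in 6 of 14 alternative settings. Beyond the members, Cyp2d12, a cytochrome P450, was 3.34-fold higher (log2 1.74, SE 0.50, edgeR adjusted p = 0.00977, 8 of 8 libraries), and at log2 0.80 when scaled to the negative probe (adjusted p = 0.154). Its call held in 8 of the 13 alternative settings that tested it. With a median ratio of 1.59 it is no member, and its counts ran from 1 to 6 in DC and from 1 to 3 in vehicle libraries. Cyp2d12 stood at the lowest value of 1 in 5 vehicle and 2 DC libraries, and its median ratio with vehicle was 0.884. Gimap4, Cyp2d12 and the receptor genes Vmn1r189 and Olfr655 belong to families of similar genes, whose RNAs a probe may share.

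**Figure D3:**
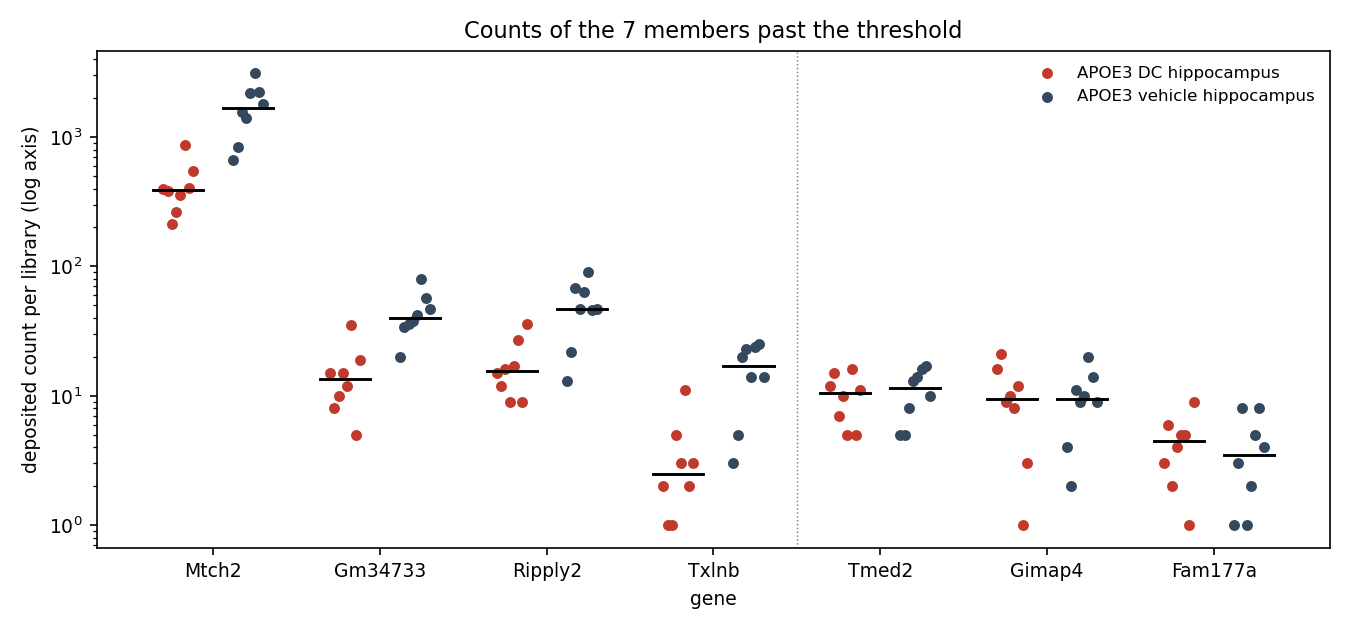
Deposited counts (log axis) of the 7 members past the threshold in the 8 DC and 8 vehicle libraries of APOE3 hippocampus; points are libraries and lines medians. The 4 genes left of the dotted line were lower after DC (Mtch2 median 390 in DC, 1680 in vehicle), and the 3 on its right were higher in relative terms while their counts overlap fully (Tmed2 median 10.5 in DC, 11.5 in vehicle).

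Other highly counted members did not pass. Gm33888, the neighbour of Gm34733 on chromosome 16, had a lowest, median and highest count of 16, 88 and 145 in DC libraries, against 79, 199 and 387 in vehicle libraries. Its log2 fold change was -0.42 (SE 0.21, edgeR adjusted p = 0.187). The long non-coding RNA Gm46840 had 46, 79 and 173 in DC libraries, against 50, 150 and 209 in vehicle libraries (log2 0.14, SE 0.21, adjusted p = 0.776). Gm10265 had 21, 65.5 and 105 in DC libraries, against 55, 116 and 207 in vehicle libraries (log2 0.08, SE 0.15, adjusted p = 0.828). The counts of all 3 were lower in the median DC library, and the groups overlapped.

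None of the next 7 members, which act on chromatin, replication or RNA, passed. Hmga2, a chromatin protein of stem and progenitor cells, had 13, 22 and 87 counts in DC libraries, against 25, 66.5 and 98 in vehicle libraries (log2 -0.04, SE 0.24, edgeR adjusted p = 0.920). Lrr1, a substrate receptor of the ubiquitin ligase that unloads the replicative helicase, had 25, 32.5 and 71 in DC libraries, against 27, 56.5 and 114 in vehicle libraries (log2 0.27, SE 0.16, adjusted p = 0.219), with 7 of 8 DC libraries above the vehicle mean of log2 CPM. Xrn1, the cytoplasmic 5′ to 3′ exoribonuclease, was at log2 -0.24 (SE 0.21, adjusted p = 0.496), and Eri3, another exoribonuclease, at 0.85 (SE 0.39, adjusted p = 0.150). Eri3 passed without vehicle replicate 3 (adjusted p = 0.0451) or DC replicate 6 (0.0347). Rrp36, a ribosomal RNA processing factor, was at 0.24, Elof1, an elongation factor of transcription-coupled repair, at 0.21 and Trir, an RNase, at 0.04; the SE were 0.25, 0.55 and 0.23.

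Membrane and signalling members lay on both sides of 0. Erlin2, of endoplasmic reticulum lipid rafts, had a log2 fold change of -0.34 (SE 0.18, edgeR adjusted p = 0.190), and Cd99, a surface glycoprotein of leukocyte passage through endothelium, of -0.39 (SE 0.20, adjusted p = 0.191). Cd99 passed without DC replicate 7 (log2 -0.53, adjusted p = 0.0470). Marcks, the actin-binding substrate of protein kinase C, had 1, 2.5 and 6 counts in DC libraries, against 3, 7.5 and 11 in vehicle libraries (log2 -0.56, SE 0.35, adjusted p = 0.359). Sprn, a neuronal relative of the prion protein, was at -0.21 and Chic2 at -0.10, with SE of 0.22 and 0.20. Inhbb, the beta B subunit of activins and inhibins, was at 0.64 (SE 0.32, adjusted p = 0.197), and Rhov, a small GTPase, at 0.39 (SE 0.21, adjusted p = 0.219). The vomeronasal receptor Vmn1r189 was at 0.38 and the olfactory receptor Olfr655 at 0.49, with adjusted p of 0.219 and 0.316.

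None of the remaining tested members passed. Coa5, needed to assemble cytochrome oxidase, had a log2 fold change of 0.05 (SE 0.25), Fdx2, the ferredoxin of iron-sulfur cluster assembly, of -0.12 (SE 0.27), and Pcbd2, a pterin dehydratase, of 0.43 (SE 0.32). The peroxisomal protease Tysnd1 had 0.13 (SE 0.17). Olig2, which specifies oligodendrocyte precursors, was the one cell type marker among the members. It had 1, 4 and 9 counts in DC libraries, against 2, 6.5 and 16 in vehicle libraries, and its relative change was 0.15 (SE 0.31, edgeR adjusted p = 0.830). Its fellow markers of oligodendrocyte precursors, Cspg4 and Pdgfra, were at ratios of 0.956 and 0.833. Ctxn1, a membrane protein of cortical neurons, was at -0.04 (SE 0.25), and Etd, named for embryonic testis differentiation, at -0.21 (SE 0.41). Gm52523, 1110065P20Rik and Gm40755 had 0.15, -0.09 and 0.16.

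The 15 members below the low-count filter had medians between 1 and 4.5 counts in either group. They were Parm1, Tbcel, 9130019O22Rik, Gcsh, Uqcc3, Lmbr1, Ppp1r9b, AI413582, Rps26, Alyref, Tmem65, Rreb1, Rps6kb2, Fth1 and Ubb. Tbcel, related to a tubulin chaperone, had 1, 2 and 5 counts in DC libraries, against 3, 4.5 and 9 in vehicle libraries. Ubb, a ubiquitin gene, had 1, 1 and 8 in DC libraries, against 1, 4.5 and 6 in vehicle libraries, and Alyref, an mRNA export adaptor, had 1, 1 and 6 in DC and 1, 3 and 5 in vehicle libraries. The last 2 stood at the lowest value in 5 DC libraries each, against 2 vehicle libraries for Ubb and 1 for Alyref. Rreb1, a zinc finger transcription factor, ran the other way, with 1, 3 and 6 in DC libraries, against 1, 1.5 and 4 in vehicle libraries. When all 51 members were tested in place of the filtered genes, 4 passed in edgeR, all lower (7.84%), and 0% passed higher. These were Mtch2, Txlnb, Gm34733 and Ripply2, and the smallest adjusted p among the 15 was 0.0931. The ratio in these same libraries chose the 51 members. Of them, 9 were above 2 in vehicle only, Txlnb included, and 1 in DC only. The shared direction of the 4 is therefore no separate support for a fall after DC.

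The direction of 18 of the 36 tested members turned with the scaling. With libraries scaled to the negative probe, which keeps a difference shared by the tested genes in the fold change, the median over the tested genes moved to -0.87 on the log2 scale from 0.06 under TMM. Then 34 of 36 tested members were below 0 and 12 of 38 tested genes passed (31.6%), all lower and all members, and 0% passed higher. These were the 4 above and Gm33888, Cd99, Erlin2, Xrn1, Chic2, Sprn, Marcks and Etd. Mtch2 was at -2.05 (SE 0.50, edgeR adjusted p = 0.000955) and Txlnb at -2.22 (SE 0.48, adjusted p = 0.000218). Across the 36 tested members the TMM fold change and the log2 level over background had Pearson's r = -0.39 and Spearman's coefficient -0.33. Genes are not independent replicates and share their libraries, and members near the lowest value have less room to fall. Mtch2, Txlnb, Gm34733 and Ripply2 were lower under both scalings. Scaling to the negative probe moved nearly all tested members down, so a gene below 0 under TMM would stay below 0. The shared direction is therefore no separate support for these 4 calls.

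**Figure D4:**
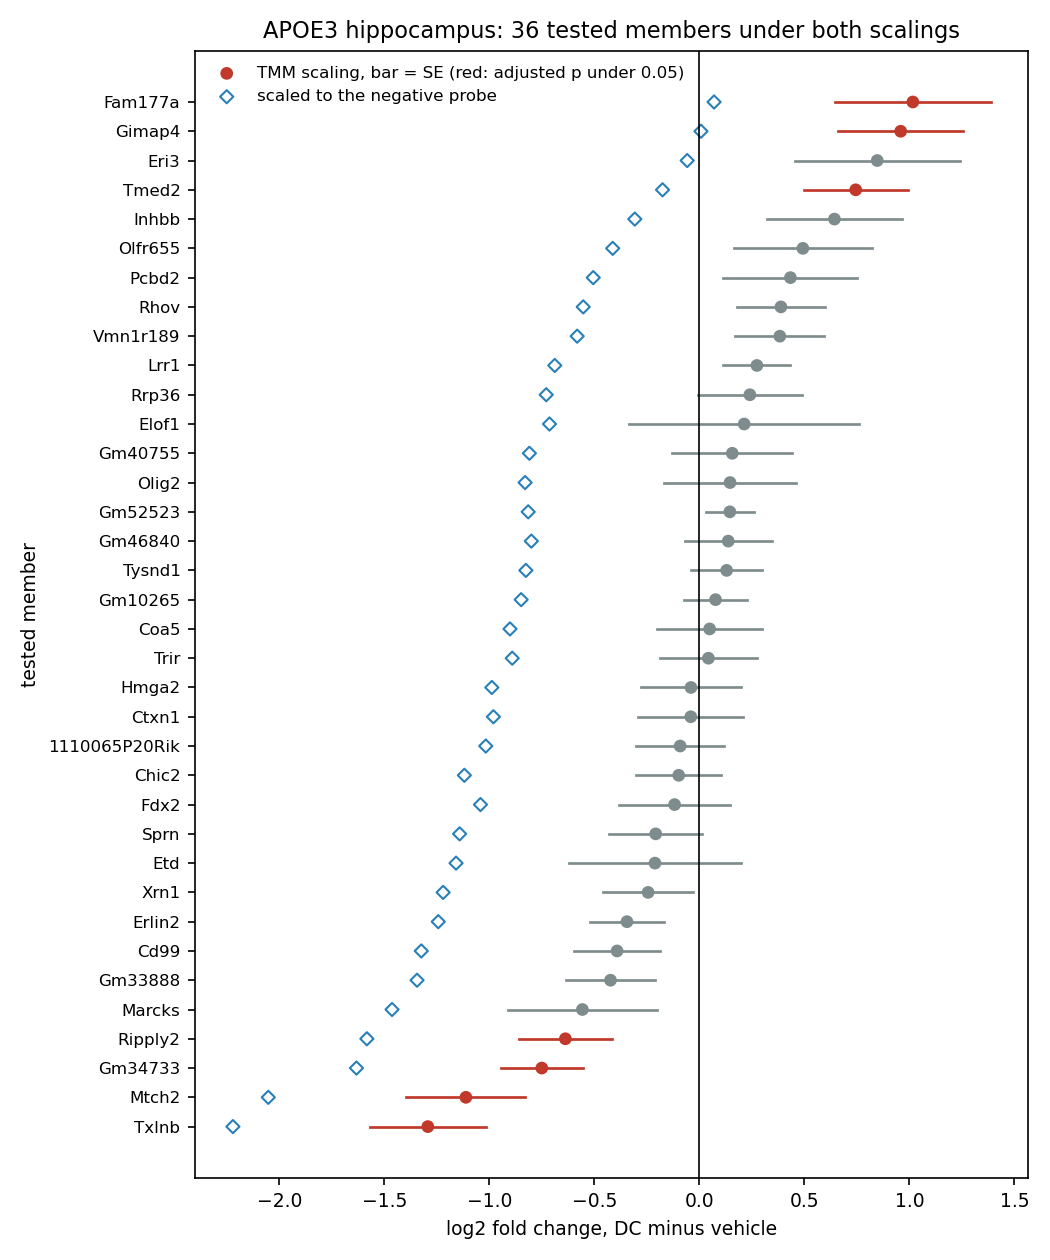
Log2 fold change, DC minus vehicle, of the 36 tested members in APOE3 hippocampus under TMM scaling (filled points, bar = SE, red where the adjusted p is under 0.05) and scaled to the negative probe (blue diamonds). Under TMM 20 members lie above 0 and 16 below; scaled to the negative probe 34 lie below, and Txlnb and Mtch2 are lowest under both.

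The DC and DD regimens share doxorubicin and differ in the second agent, and they were compared directly, again with p-values over regions that are too small if regions share an animal. Of 38 genes, 0 passed between DC and DD in edgeR (0% in either direction), with 2 at an unadjusted p below 0.05, and 0 passed in DESeq2, with 3. Those 2 were Txlnb, lower after DC than DD (log2 -0.88, SE 0.29, adjusted p = 0.129), and Tmed2, higher (log2 0.67, SE 0.25, adjusted p = 0.175). Txlnb passed without DC replicate 6 and with the run of wells as a random block. DD shares the vehicle libraries with DC. Against vehicle, Ripply2 was at -0.64 after DC and -0.87 after DD (SE 0.22 and 0.21), the one DD call among 38 (2.63%, lower; 0% higher). Mtch2 was at -1.11 after DC and -0.74 after DD (DD adjusted p = 0.0982), Gm34733 at -0.75 after DC and -0.51 after DD, and Txlnb at -1.29 after DC and -0.41 after DD. The summed tested counts had a median of 914.5 after DC, 1938 after DD and 2979 with vehicle.

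Whether DC acted differently in APOE3 and APOE4 hippocampus was tested as an interaction, over regions, with p-values too small under shared animals. Of 38 genes 2 passed in edgeR (5.26%), Txlnb lower (2.63%) and Lrr1 higher (2.63%) in the APOE3 effect. Txlnb was at -1.29 in APOE3 and -0.09 in APOE4, a difference of -1.20 (SE 0.33, adjusted p = 0.0245). Lrr1 was at 0.27 in APOE3 and -0.48 in APOE4, a difference of 0.76 (SE 0.22, adjusted p = 0.0271). Both calls ended without DC replicate 3, without the pair of DC replicates 7 and 8 and with wells of a run summed, while 4 genes passed without vehicle replicate 5. The Lrr1 call also ended without DC replicate 7 or vehicle replicate 3, 6, 7 or 8. The APOE4 effect stands on a higher background: the negative probe had a median of 10.9 after DC and 2.03 with vehicle in APOE4 hippocampus. The 2 genotypes lay on different collection plates, so each effect was taken within its plate. In APOE4, 8 of 38 genes passed after DC (21.1%), 4 higher (10.5%) and 4 lower (10.5%). Among the APOE3 calls, Fam177a was higher there too (0.68, adjusted p = 0.0397), and Mtch2 was at -0.73 (adjusted p = 0.0514). Ripply2 was at -0.48 (edgeR adjusted p = 0.0535) and Gm34733 at -0.16 (adjusted p = 0.463) in APOE4.

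In APOE3 cortex, DC was set against separate vehicle libraries; the labels do not say whether cortex and hippocampus regions came from the same animals, and shared animals would make the p-values here too small. Of 30 genes tested in both regions together, 5 passed in cortex (16.7%), all lower, and 0% higher. Mtch2 was at -1.16 (edgeR adjusted p = 0.00253), Ripply2 at -0.95 (adjusted p = 0.00869), Gm34733 at -0.94 (adjusted p = 0.00253), Gm33888 at -0.63 (adjusted p = 0.0309) and Cd99 at -0.58 (adjusted p = 0.0200). So 3 of the 4 members lower in hippocampus were lower in cortex too, while Txlnb was at -0.26 (adjusted p = 0.673). The difference between regions passed for 0 of 30 genes in edgeR (0% in either direction; 1 at an unadjusted p below 0.05) and for 0 in DESeq2 (2 unadjusted). The Txlnb difference was -0.92 (SE 0.48, adjusted p = 0.593), and Gimap4, at 0.94 (SE 0.41), passed once DC replicates 7 and 8 were left out. Summed tested counts had a median of 1592.5 in DC and 2084.5 in vehicle cortex.

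**Figure D5:**
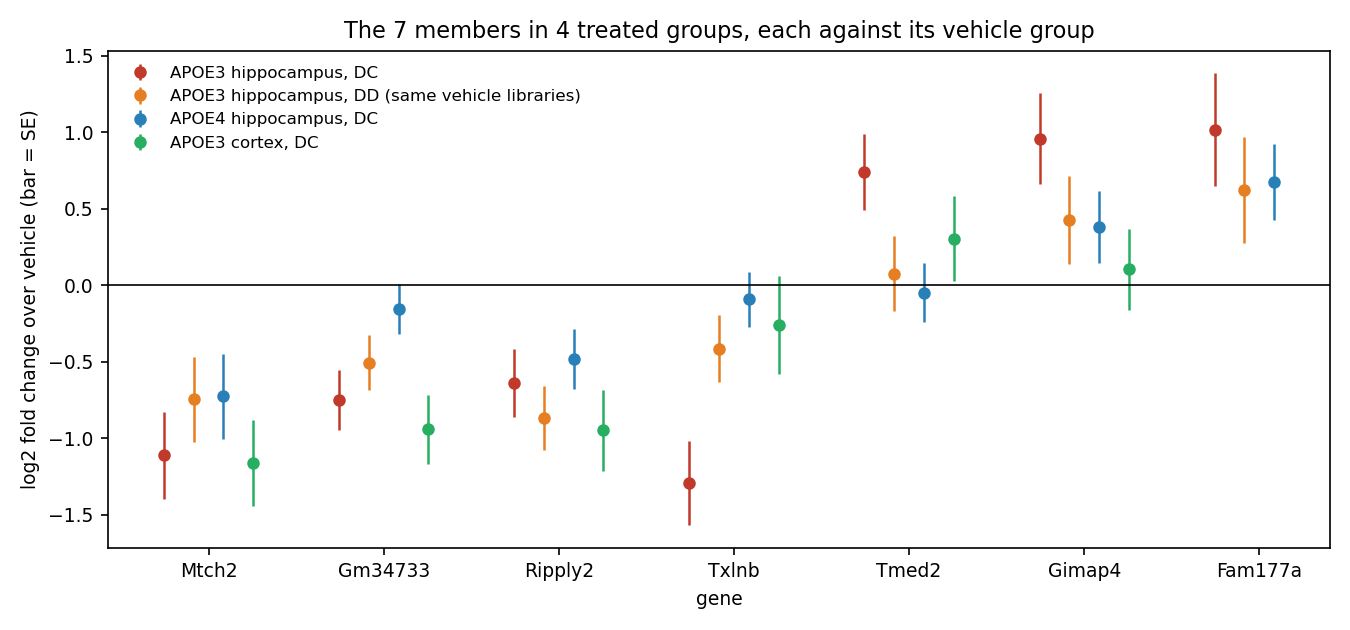
Log2 fold change against the matching vehicle group (bar = SE) of the 7 members called in APOE3 hippocampus, after DC and DD in APOE3 hippocampus (which share vehicle libraries), after DC in APOE4 hippocampus and after DC in APOE3 cortex. Mtch2, Gm34733 and Ripply2 are below 0 in all 4, though Gm34733 in APOE4 hippocampus is only at -0.16 (SE 0.16). Txlnb is lowest after DC in APOE3 hippocampus at -1.29, and Fam177a has no cortex value because it was not tested there.

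Across genes, the DC effects in APOE3 hippocampus and APOE3 cortex went together, with Pearson's r = 0.70 and Spearman's coefficient 0.68 over 30 genes, and 0.64 and 0.65 without Mtch2. For the DC effects in APOE3 and APOE4 hippocampus they were 0.44 and 0.43 over 36 genes. These are descriptions across genes that share their libraries, probes and depth, with no test. A further reading came from the vehicle mice of the other genotype. In APOE4 vehicle mice, with the same limit on p-values over regions, 32 of 40 tested genes differed between hippocampus and cortex (80%), 16 higher in hippocampus (40%) and 16 lower (40%). All 4 members that were lower after DC were higher in hippocampus than in cortex there: Mtch2 by 1.11, Gm34733 by 0.97, Ripply2 by 0.95 and Txlnb by 0.89 on the log2 scale (edgeR adjusted p of 3.05e-05, 0.000324, 7.53e-05 and 0.000491). Tmed2, which was higher after DC, was higher in hippocampus as well (1.02, adjusted p = 0.000296), and over 35 members the regional difference and the DC effect had Pearson's r = -0.11 and Spearman's coefficient -0.04.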

How the data were processed

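Captured regions of mouse brain sections of 8 µm were profiled on the GeoMx platform, 1 library per region. The authors deposited expected counts for each target, without scaling to depth. Only the negative probe and 3 genes hold values that are not whole, and the lowest value is 1 in 94 of 97 libraries. The submitters' processing notes name mm10; for the counting software and filters the entry is: not given in the sources used here. Counts were rounded, scaled by TMM, filtered with filterByExpr (minimum count 10) and tested with edgeR 4.0.16 in R 4.3.3 (quasi-likelihood F test, Benjamini-Hochberg over the 38 genes tested in hippocampus, threshold 0.05). The fit held all 48 hippocampus libraries; the comparison of regions used 32 APOE3 libraries and 30 genes. SE were derived from the F statistic, and log2 CPM used a prior count of 2 and the summed tested counts. For depth and background, exact two-sided permutation tests were used (scipy 1.17.1). No SD or interval covers more than the spread between regions.

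The members, gene lists and tests were chosen with earlier results of these data known, and the comparison of regions in APOE4 vehicle mice was added later. The rule for naming genes took every member past the threshold, then up to 12 in each direction by unadjusted p, the 5 with the highest ratio, those beside the limit of 2, listed genes above it or else up to 3 of each list, and Mtch2, Apoe, Cdkn1a and Dcx; the remaining members are named to account for all. Replicate numbers are in accession order. Neighbouring wells of 1 group were treated as a run. Alternatives were upper-quartile scaling, DESeq2 1.42.0, other filters, other treatments of background, runs of wells as the unit (limma 3.58.1 for the random block), and each library left out in turn. The script was tested on simulated data. Positions and promoters come from RefSeq (GRCm38.p6), which listed 50 of 51 members.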

Additional observations from a re-analysis of the deposited data

Results flagged for a closer look

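In groups of 8, single libraries stood apart from their group in 5 of 60 checks of named genes and of the negative probe, and chance alone sets apart about 1 group in 20. DC replicate 8 had the highest Xrn1 level, a log2 CPM of 14.93 against a median of 13.99 in its group. The same library had the highest negative probe, 0.90 on the log2 scale against a median of 0.33. DC replicate 6 had the lowest Gm46840 level, 15.55 against a median of 16.28, and also the highest summed tested counts of its group (1795). Vehicle replicate 5 stood apart in 2 genes, Mtch2 with a log2 CPM of 20.75 against a median of 19.54, and Gm33888 with 17.25 against 16.60. Without that library the Mtch2 and Gm33888 results stayed on their side of the threshold.

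The DC effect differed between genotypes in edgeR for 2 genes, Txlnb with a difference of -1.20 and Lrr1 with 0.76 on the log2 scale (APOE3 minus APOE4). With the wells of a run summed neither passed. The part of plate and of the higher background of APOE4 DC libraries in these differences was not tested.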

How the results depend on the processing

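No paired analysis was possible because the labels give the libraries no replicate numbers or animals. Beside the 8 calls of DC against vehicle, 1 gene passed with no low-count filter, 3 with a minimum count of 3, 4 with the filter on the ratio to the negative probe, 3 with the negative probe subtracted and 1 with the negative probe over the tested counts as a covariate. Mtch2 alone passed with no filter among 19962 genes, and Txlnb alone with the covariate. The count stayed within 1.5 times of 8 under upper-quartile scaling (11), DESeq2 (7), the 16 libraries alone (7), values of 1 read as 0 (7), scaling to the negative probe (12), without Mtch2 (6), with runs summed (6), with the run as a random block (6) and without DC replicates 7 and 8 (7; chosen after seeing the data). Leaving out each library in turn gave 4 to 9 calls, with 4 without DC replicate 2 and 5 without vehicle replicate 6; Txlnb, Mtch2 and Gm34733 were kept in all 16. Tmed2 turned to log2 -0.19 with no filter, -0.19 with a minimum count of 3 and -0.18 when scaled to the negative probe. Scaled to the negative probe, 17 uncalled members also changed sign.

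DC against DD gave 1 call with no filter and 1 with the random block, and 0 to 1 over the libraries left out (1 without DC replicate 6). The genotype difference gave 0 with no filter, with the ratio filter, with only the groups compared, with the negative probe subtracted, with runs summed and without DC replicates 7 and 8, 1 when scaled to the negative probe (Mplkip, with Txlnb and Lrr1 lost), and 1 without Mtch2 or with the random block (Txlnb). A minimum count of 3 gave 2 calls, Cpb2 and Dennd11, and lost both. It ran from 0 to 4 over the libraries left out: 0 without DC replicate 3, 1 without DC replicate 7 or vehicle replicate 6 or 8, and 4 without vehicle replicate 5. The region difference gave 1 call without DC replicates 7 and 8, Gimap4. The difference in summed counts ran from -1.59 to -1.28 with a library left out, and that of the negative probe from -0.04 to 0.08. The causes were not tested. A ratio limit of 1.5 in place of 2 would give 306 members and one of 3 would give 34. Depth limits the rest: most genes lie at the lowest value.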
